A study of Mus musculus with 46 samples.

Results

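The 10 genes described here are core genes of autophagy, chosen by name as the rows Ulk1, Becn1, Atg7, Atg3, Atg12, Atg5, Atg16l1, Map1lc3b, Gabarap and Sqstm1 of a table of raw RNA-seq read counts. They are 10 of the table's 54134 gene symbols, and all 10 were among the 12121 genes that passed the filter on low counts. Bulk RNA of microglia, the resident macrophages of the brain, was sequenced from mice of 2 genotypes on 3 diets. The genotype labelled AD is 5xFAD, a model of Alzheimer's disease that carries mutated human transgenes driven by the neuronal Thy1 promoter, and the other is wild type (WT). HAMSAB is a high-amylose maize resistant starch that carries acetate and butyrate groups, which reach the colon and are freed there. The other diets were a zero fiber diet and a control diet. There were 8 libraries each of HAMSAB AD, HAMSAB WT and zero fiber AD, 6 of zero fiber WT, and 8 each of control AD and control WT. Each of these 6 groups held 4 female and 4 male libraries, except zero fiber WT with 4 female and 2 male. The labels give neither the age of the mice, nor the time on the diet, nor how the microglia were isolated. Nor do they say whether every library is a different animal, and p-values therefore cover only the variation seen from library to library.

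Autophagy encloses cytoplasm in a double membrane and delivers it to the lysosome. The ULK1 kinase complex starts the process, and the Beclin 1 lipid kinase complex marks the forming membrane with a phosphoinositide. ATG7 then acts as the E1-like enzyme of a pair of ubiquitin-like conjugation systems: through ATG10 it joins ATG12 to ATG5, which binds ATG16L1, and through ATG3 it joins LC3 and GABARAP proteins to membrane lipid. The receptor p62, encoded by Sqstm1, binds ubiquitinated cargo on one side and LC3 on the other. In microglia the same conjugation machinery also serves LC3-associated uptake of extracellular material, amyloid included. Much of the activity of the pathway is set at the protein level, so RNA counts measure the supply of its transcripts and not its flux.

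Libraries differed in depth, from 1174514 to 6950429 reads assigned to genes for 44 of 46. The other 2, zero_fiber_AD_M replicate 1 with 783849 and replicate 2 with 52114, were shallower (M and F mark the sex, and the replicate number is only a name). The library labelled zero_fiber_AD_F replicate 1 had 1 read of Xist, the X-inactivation RNA of female cells, so its sex label is in doubt wherever sexes are averaged or compared. The library of 52114 counts is left out of the means, medians and ranges of levels below, but stays in the tests, and no call of a member changed without both of these libraries. The 7 microglial markers checked, P2ry12 and Tmem119 among them, summed to between 22400 and 36370 CPM (counts scaled to the library's TMM-adjusted total) in every library, and the 6 lymphocyte markers to no more than 1.31 CPM. In bulk RNA, fewer cells of a type and less RNA per cell cannot be told apart.

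Per length of merged exons, Gabarap and Sqstm1, whose proteins are degraded together with the cargo, had the highest levels of the 10. This order depends on the length used: Map1lc3b had a median of 391 reads per library and Sqstm1 300. Levels are given here as RPKM over the merged exons of each gene, in 45 libraries. Gabarap, an ATG8-family protein that is lipidated on the membrane, averaged 119.8 ± 13.1 RPKM (SD) and ranked 358 of 11982 genes with an annotated length. Sqstm1 followed at 39.6 ± 4.93 RPKM, Atg5 at 33.5 ± 4.11 RPKM and Map1lc3b, which encodes LC3B, at 21.3 ± 3.14 RPKM. The conjugation enzymes spanned a wide range. Atg3, the E2-like enzyme, stood at 19.5 ± 2.52 RPKM, while Atg7, the E1-like enzyme upstream of it, stood at 7.11 ± 1.66 RPKM. Atg12 had 6.13 ± 0.85 RPKM, Ulk1 3.33 ± 0.75 RPKM and Atg16l1 3.21 ± 0.48 RPKM. Becn1 was lowest, at 1.09 ± 0.39 RPKM, with a median of 19 reads per library and rank 10650. Its merged exons share 3104 of 7065 bases with Cntd1 on the opposite strand, and Cntd1 itself had a median of 0 reads. The strand setting of the counting is not given in the sources used here, so reads of such pairs cannot be told apart. The same holds for 580 exon bases that Sqstm1 shares with Mrnip, which had a median of 1 read, and for 58 that Map1lc3b shares with Zcchc14. If the counting left out reads of shared bases, the levels of these genes, and the rank of Becn1, are too low.

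**Figure D1:**
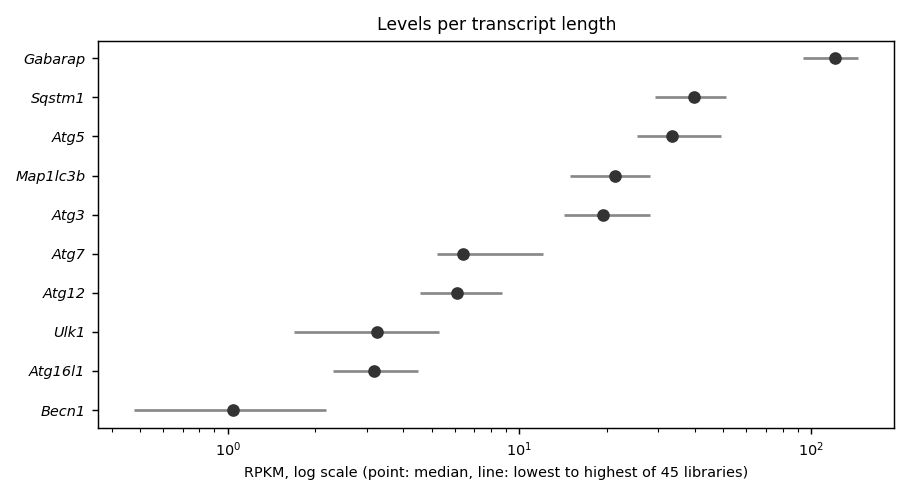
Level of each gene per length of merged exons in RPKM, on a log axis. Points are medians and lines run from the lowest to the highest of 45 libraries, leaving out the library of 52114 counts. Gabarap (94.1 to 145.3 RPKM) lies above every other gene, and Becn1 (0.479 to 2.18 RPKM) is lowest. The Becn1 level may be too low, as it shares exon bases with Cntd1 on the opposite strand.

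Atg7 was the only one of the 10 genes that passed the test in any comparison. It was lower in HAMSAB AD than in HAMSAB WT microglia by 0.63 on the log2 scale, and higher in HAMSAB WT than in zero fiber WT microglia by 0.55. None of the other 9 genes passed, its partners Atg3, Atg12, Atg5 and Atg16l1 included. Whether their changes differ from that of Atg7 was not tested. Atg7 (ENSMUSG00000030314) lies on chromosome 6, 114643097 to 114860614, plus strand (GRCm38). With a span of 217.5 kb it is longer than 96.89% of the tested genes that could be placed.

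In HAMSAB AD, Atg7 had a lowest, median and highest value of 37.9, 42.7 and 45.8 CPM, against 50.6, 66.1 and 84.2 CPM in HAMSAB WT. All 8 HAMSAB AD libraries were below all 8 HAMSAB WT libraries. On zero fiber it had 38.97, 44.9 and 56.8 CPM in AD, against 39.7, 45.8 and 58.6 CPM in WT, and these ranges overlapped almost fully. Control AD had 36.4, 41.1 and 65.6 CPM, and control WT had 36.4, 50.01 and 63.6 CPM. The order of the group means was HAMSAB WT, control WT, zero fiber AD, zero fiber WT, control AD and HAMSAB AD, with a ratio of 1.55 between the ends. Each pair of neighbours in that order overlapped, and HAMSAB AD against HAMSAB WT was the only 1 of 15 pairs of groups that did not. Among all genes tested, 17 (0.14%) had every HAMSAB AD library below every HAMSAB WT library.

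**Figure D2:**
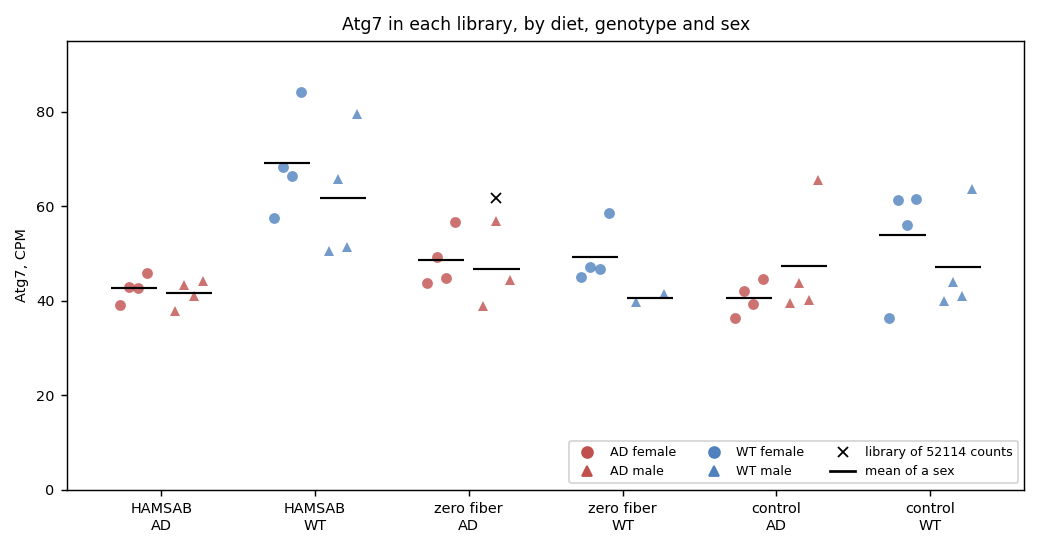
Atg7 in CPM in each library, by diet and genotype (red AD, blue WT) and sex (circles female, triangles male); bars are means of a sex and the cross is the library of 52114 counts, left out of the bars. HAMSAB AD libraries lie between 37.9 and 45.8 CPM and HAMSAB WT libraries between 50.6 and 84.2 CPM, and in zero fiber WT 5 of 6 libraries lie below the lowest HAMSAB WT library.

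The genotypes were compared within each diet to ask whether AD microglia differ from WT on the same food. On HAMSAB, Atg7 averaged 42.1 ± 2.65 CPM in AD and 65.4 ± 12.2 CPM in WT (SD, n = 8 each), a log2 fold change of -0.63 ± 0.12 (SE; edgeR quasi-likelihood adjusted p = 0.00325). In that comparison 1.68% of all genes were called, 0.215% higher and 1.47% lower in AD, and 1 of the 10 genes was called lower. HAMSAB AD females reached at most 45.8 CPM, against 57.5 to 84.2 CPM in HAMSAB WT females. HAMSAB AD males reached at most 44.2 CPM, against 50.6 to 79.6 CPM in HAMSAB WT males. As all libraries of these groups lay apart, each sex had to separate as well. On zero fiber the log2 fold change was 0.11 ± 0.14 (adjusted p = 1 with edgeR), and on the control diet -0.21 ± 0.12 (adjusted p = 0.957 with edgeR).

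The diets were compared within each genotype to ask how the kind of fiber relates to expression. In WT, Atg7 averaged 65.4 ± 12.2 CPM on HAMSAB (n = 8) and 46.4 ± 6.66 CPM on zero fiber (n = 6), a log2 fold change of 0.55 ± 0.13 (SE; edgeR quasi-likelihood adjusted p = 0.0196). Here 2.19% of all genes were called, 1.86% higher and 0.322% lower on HAMSAB, and 1 of the 10 genes was called higher. The ranges overlapped: 5 of 6 zero fiber WT libraries lay below the lowest HAMSAB WT library, and the sixth, at 58.6 CPM, did not. In AD the same diets gave a log2 fold change of -0.19 ± 0.12 (edgeR adjusted p = 0.61). The difference between these diet effects, AD minus WT, was itself tested: it was -0.74 ± 0.18 on the log2 scale (edgeR quasi-likelihood adjusted p = 0.0272). That test called 1.08% of all genes, 0.0578% higher and 1.02% lower, and 1 of the 10 genes was called lower. These 3 results share the HAMSAB WT libraries, and 2 of the 3 share the zero fiber WT libraries.

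Against the control diet, HAMSAB WT had a higher Atg7 mean (65.4 CPM against 50.5 CPM), but the log2 fold change of 0.37 ± 0.12 did not pass (edgeR adjusted p = 0.136), and 0.281% of all genes were called. The test of any difference among the 6 groups called Atg7 (edgeR adjusted p = 0.00321) and none of the other 9 genes, with 4.36% of all genes called. Leaving out 1 library at a time kept the call of AD against WT on HAMSAB in 16 of 16 fits (adjusted p 0.00136 to 0.0114 with edgeR). It ended the call of HAMSAB against zero fiber in WT in 4 of 14 fits, without zero_fiber_WT_M replicate 1 or 2 or HAMSAB_WT_M replicate 1 or HAMSAB_WT_F replicate 2 (adjusted p 0.119, 0.165, 0.0541 and 0.0514 with edgeR). The difference of diet effects between genotypes lost its call in 6 of 30 such fits: the same 4 (0.0998, 0.112, 0.0561 and 0.0576), and those without zero_fiber_AD_M replicate 3 (0.142) or zero_fiber_WT_F replicate 3 (0.0541), all edgeR adjusted p. The 2 zero fiber WT males, at 41.4 and 39.7 CPM, are the whole of that sex in the group.

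The numbers in the library titles fall into a lower and an upper series, which the labels do not call batches. Within the lower series, the mean log2 CPM of Atg7 in HAMSAB AD minus that in HAMSAB WT was -0.69 (5 libraries each), and within the upper series it was -0.51 (2 and 3 libraries). For HAMSAB against zero fiber in WT the differences were 0.57 (5 and 4 libraries) and 0.34 (3 and 2 libraries). For AD against WT on HAMSAB the direction in each series was fixed beforehand, because the libraries of the groups did not overlap. HAMSAB against zero fiber in WT also kept its direction. Neither difference was adjusted for sex. All HAMSAB AD males and all zero fiber WT males were in the lower series.

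Summed markers of some other cells differed in their medians between these groups. Others were closer between HAMSAB AD and HAMSAB WT: astrocyte medians were 240.0 and 247.3 CPM, and oligodendrocyte medians 194.9 and 189.5 CPM. In zero fiber WT these medians were 286.6 and 218.1 CPM. On HAMSAB the neuron medians were 12.1 CPM in AD and 14.5 CPM in WT, and the neutrophil and monocyte medians 9.76 and 8.92 CPM. The 6 endothelial markers summed to 25.8 to 100.2 CPM in HAMSAB AD (median 80.0) and 27.5 to 96.8 CPM in HAMSAB WT (median 38.4). Only 1 of these 6 was tested, and edgeR did not call it in AD against WT on HAMSAB. The 8 perivascular macrophage markers summed to 18.2 to 44.5 CPM in HAMSAB AD (median 33.9) and 27.9 to 76.0 CPM in HAMSAB WT (median 50.5), and 0 of the 7 tested ones were called by edgeR (2 had an unadjusted p under 0.05). The 6 erythroid and choroid plexus markers summed to 42.3 to 228.6 CPM in HAMSAB WT (median 166.3) and 170.8 to 759.9 CPM in zero fiber WT (median 317.9). Of these, Hba-a1, a globin of red cells, was called lower on HAMSAB in WT (log2 fold change -2.30, adjusted p = 0.0192 with edgeR), though its reads may be split with the near-identical Hba-a2. Microglial markers summed to medians of 31570 CPM in HAMSAB AD, 28310 CPM in HAMSAB WT and 29690 CPM in zero fiber WT. In the test of any difference among the 6 groups, which called Atg7, 2 of 7 tested perivascular macrophage markers and 4 of 5 tested erythroid and choroid plexus markers were called too. These 5 were the globins Hba-a1, Hba-a2, Hbb-bs and Hbb-bt, and Ttr of the choroid plexus. For HAMSAB against zero fiber in AD, Ttr had a log2 fold change of 0.84 and the globins -2.67 to -2.16, none called by edgeR. In WT 0 of the 5 were higher on HAMSAB. The part of other cells in the Atg7 differences was not tested. Every marker had reads in some library except Ly6g, a neutrophil marker.

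Promoter sequence was read from RefSeq windows of 250 bases before to 50 after the start site (GRCm38.p6), which held 7 of the 10 genes: Ulk1, Atg5, Atg7, Atg3, Map1lc3b, Gabarap and Sqstm1. CACGTG, the core of the element bound by TFEB-family activators of lysosome and autophagy genes, was searched on both strands, on which it reads the same. It occurred in 3 of the 7 windows, those of Atg7, Atg5 and Atg3, against 7.15% of all 32851 windows. These 3 are shown because they hold the same core and encode partners in 1 reaction path, and because Atg7 was called while Atg5 and Atg3 were not, a difference between genes that was not tested. The capitals mark the core, which starts 132 bases before the start site in Atg7, 14 before it in Atg5, and 94 and 71 before it in Atg3. The windows are chr6:114670846-114671145 for Atg7, chr10:44268089-44268388 for Atg5 and chr16:45158579-45158878 for Atg3, all on the plus strand. The Atg7 window lies inside the gene as GENCODE annotates it, so it belongs to a start downstream of the first one. It has 42.7% G and C, against 59.3% for Atg5 and 67.3% for Atg3.
Atg7: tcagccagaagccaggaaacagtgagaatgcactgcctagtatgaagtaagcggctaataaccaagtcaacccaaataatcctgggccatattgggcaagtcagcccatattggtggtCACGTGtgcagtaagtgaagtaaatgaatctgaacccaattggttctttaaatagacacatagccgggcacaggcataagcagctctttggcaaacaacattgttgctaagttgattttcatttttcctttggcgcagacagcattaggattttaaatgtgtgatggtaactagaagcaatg
Atg5: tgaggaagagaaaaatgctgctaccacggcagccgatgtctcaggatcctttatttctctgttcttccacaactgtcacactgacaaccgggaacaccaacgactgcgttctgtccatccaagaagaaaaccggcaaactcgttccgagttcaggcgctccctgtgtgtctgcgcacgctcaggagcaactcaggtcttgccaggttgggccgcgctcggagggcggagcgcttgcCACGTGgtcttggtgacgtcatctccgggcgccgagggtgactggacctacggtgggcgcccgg
Atg3: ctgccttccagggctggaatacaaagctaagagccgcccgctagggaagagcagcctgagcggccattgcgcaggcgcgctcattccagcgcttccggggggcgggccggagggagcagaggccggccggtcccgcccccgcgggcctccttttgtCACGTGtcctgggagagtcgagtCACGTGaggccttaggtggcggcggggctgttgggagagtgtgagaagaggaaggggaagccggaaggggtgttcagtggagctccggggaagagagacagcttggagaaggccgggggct

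The NRF2 core TGACNNNGC, searched on both strands, occurred in 1 of the 7 windows, that of Map1lc3b, 5 bases after the start site, and in 12.392% of all windows. CCAAT was found in the Atg7 window and in no other of the 7, and in 37.408% of all windows. The GC box GGGCGG was found in 5 of the 7 windows, without Atg7 and Gabarap, and in 35.658% of all windows. The Atg7 window thus lacked the GC boxes of Ulk1, Atg5, Atg3, Map1lc3b and Sqstm1. As it belongs to a downstream start, its motifs do not describe the promoter of the first annotated Atg7 start. No binding was measured here.

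Atg3 (chromosome 16, 45158785 to 45188538, plus strand), which takes LC3 from ATG7 and passes it to lipid, was the other gene with a pair of groups that did not overlap. Its lowest, median and highest values were 45.5, 56.8 and 58.3 CPM in HAMSAB WT, against 58.7, 64.3 and 88.7 CPM in control WT. HAMSAB WT held 5 libraries of the lower title series and 3 of the upper, and control WT held 1 and 7. Diet and title series thus partly coincide here. Within the upper series the values were 45.5 to 57.5 CPM in HAMSAB WT and 58.7 to 88.7 CPM in control WT. Since the full ranges did not overlap, those of any subset of these libraries could not overlap either. Over all genes tested, 4 (0.033%) had every HAMSAB WT library below every control WT library. The log2 fold change was -0.28 ± 0.09 and did not pass (edgeR adjusted p = 0.148). In AD the same diets gave 54.5, 61.7 and 75.8 CPM on HAMSAB, against 44.9, 60.3 and 66.8 CPM on control. The difference between the genotypes in this diet effect, AD minus WT, was 0.39 ± 0.13 on the log2 scale (adjusted p = 0.843 with edgeR). Atg3 averaged 63.4 ± 6.504 CPM in HAMSAB AD and 54.7 ± 4.41 CPM in HAMSAB WT, a log2 fold change of 0.21 ± 0.09 (edgeR adjusted p = 0.318), opposite in sign to that of Atg7.

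The ratio of Atg7 to Atg3 CPM within a library does not depend on the library's scaling. This ratio was chosen after the values were seen and is given without a test. It was 0.5 to 0.753 in HAMSAB AD (median 0.701) and 0.879 to 1.64 in HAMSAB WT (median 1.16). It was 0.485 to 0.925 in zero fiber AD (median 0.735) and 0.652 to 0.951 in zero fiber WT (median 0.735). It was 0.587 to 1.07 in control AD (median 0.724) and 0.494 to 1.05 in control WT (median 0.725). HAMSAB WT had the highest median of this CPM ratio, and each group but HAMSAB AD overlapped with it. CPM are not corrected for length, so the ratio does not give relative numbers of transcripts. Per length, Atg7 averaged 7.11 RPKM and Atg3 19.5 RPKM over the 45 libraries, with merged exons of 6968 and 3154 bases.

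Of the ATG12 branch downstream of Atg7, none of Atg5, Atg12 and Atg16l1 passed a test. Atg5 (chromosome 10, 44268358 to 44364291, plus strand), which becomes the partner of ATG12, had group means between 74.4 CPM in zero fiber WT and 82.8 CPM in control WT, a log2 fold change of -0.21 ± 0.10 for zero fiber against control (edgeR adjusted p = 0.612). Atg12 (chromosome 18, 46730144 to 46741580, minus strand), the ubiquitin-like modifier, had group means between 44.3 CPM in HAMSAB WT and 51.3 CPM in control AD. Its log2 fold changes within a genotype or a diet stayed between -0.14 and 0.12. Atg16l1 (chromosome 1, 87755870 to 87792428, plus strand), which places the conjugate on the membrane, averaged 27.4 ± 3.82 CPM in zero fiber WT and 32.9 ± 4.53 CPM in control WT. Within a genotype or a diet its largest fold change in size was 0.21 ± 0.13, for HAMSAB against zero fiber in WT (edgeR adjusted p = 0.555).

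**Figure D3:**
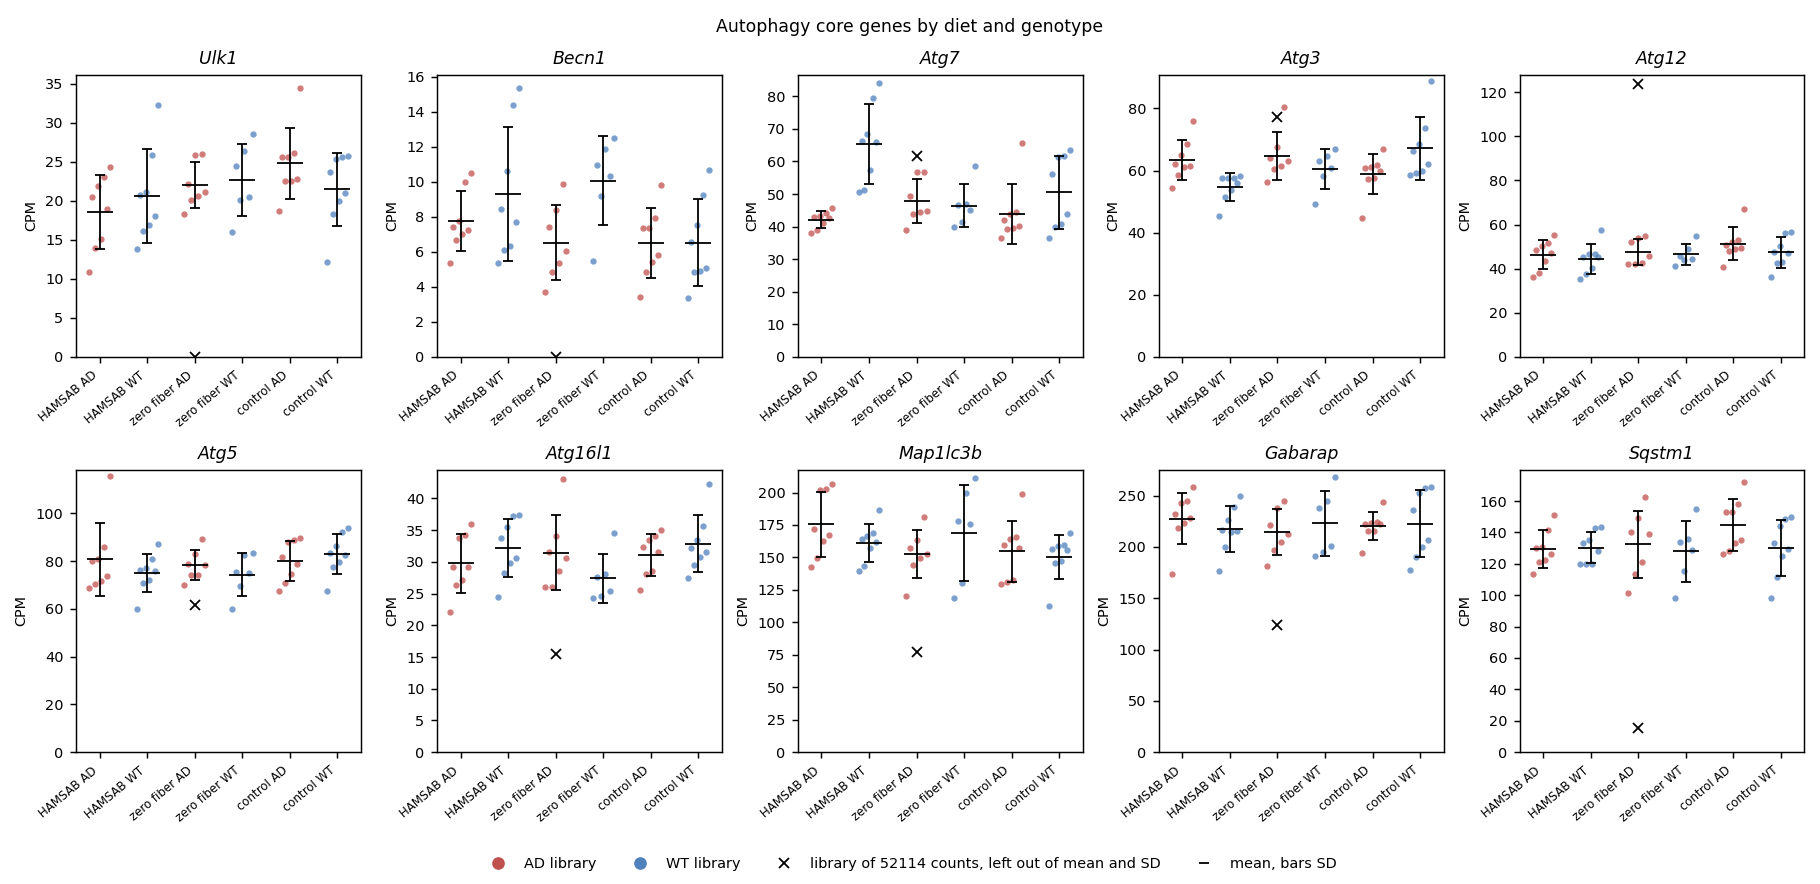
CPM of each of the 10 genes in each library, by diet and genotype (red AD, blue WT), with the mean and SD of a group; the cross is the library of 52114 counts, left out of mean and SD. HAMSAB WT stands above HAMSAB AD without overlap for Atg7, and HAMSAB WT lies below control WT without overlap for Atg3; no other pair of groups separates for any of the 10 genes, which makes 2 of 150 combinations of gene and pair, against 0.158% of such combinations over all genes tested.

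The initiation genes Becn1 and Ulk1 had the widest spread between libraries of a group, and neither passed a test. Their biological coefficients of variation were 0.208 and 0.179, against 0.103 to 0.139 in the other 8. The trend fitted over all genes by level was 0.252 for Becn1, 0.187 for Ulk1 and 0.161 to 0.171 for the other 8. Each gene thus varied less than the trend at its level. Becn1 (chromosome 11, 101285952 to 101302286, minus strand), the scaffold of the lipid kinase complex, had a lowest, median and highest value of 5.48, 10.7 and 12.5 CPM in zero fiber WT, against 3.38, 5.81 and 10.7 CPM in control WT. The log2 fold change was 0.66 ± 0.25 (edgeR adjusted p = 0.476). On zero fiber it averaged 6.53 ± 2.16 CPM in AD (n = 7) and 10.1 ± 2.53 CPM in WT (n = 6), a log2 fold change of -0.64 ± 0.26 (edgeR adjusted p = 0.999). In both cases the ranges overlapped, and each value rests on 44 reads or fewer. Over both genotypes the log2 fold change of HAMSAB against control was 0.34 ± 0.16 (edgeR adjusted p = 0.203).

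Ulk1 (chromosome 5, 110784488 to 110810097, minus strand), the kinase that starts autophagy when nutrients run low, had 10.9, 19.7 and 24.3 CPM as lowest, median and highest value in HAMSAB AD, against 18.7, 24.2 and 34.4 CPM in control AD. The log2 fold change was -0.42 ± 0.16 and did not pass (edgeR adjusted p = 0.204), and the ranges overlapped. Over both genotypes the log2 fold change was -0.24 ± 0.12 (edgeR adjusted p = 0.209). Its group means ran from 18.6 CPM in HAMSAB AD to 24.8 CPM in control AD.

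Neither gene of the ATG8 family passed a test. Map1lc3b (chromosome 8, 121590361 to 121598760, plus strand) had 142.8, 169.6 and 206.4 CPM as lowest, median and highest value in HAMSAB AD, against 120.0, 152.8 and 181.2 CPM in zero fiber AD. The log2 fold change was 0.22 ± 0.11 and did not pass (edgeR adjusted p = 0.464). Gabarap (chromosome 11, 69991143 to 69994951, plus strand) had the smallest ratio between its highest and lowest group means of the 10 genes, 1.06, at 227.7 CPM in HAMSAB AD and 214.2 CPM in zero fiber AD. All its log2 fold changes within a genotype or a diet stayed between -0.06 and 0.11.

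Sqstm1 (chromosome 11, 50199366 to 50210827, minus strand), whose protein accumulates when autophagy stalls and whose gene NRF2 can induce, had group means between 127.9 CPM in zero fiber WT and 144.9 CPM in control AD. Its AD against WT log2 fold changes were -0.01 ± 0.11 on HAMSAB, 0.03 ± 0.12 on zero fiber and 0.17 ± 0.11 on the control diet. In AD its log2 fold change of zero fiber against control was -0.19 ± 0.11 (edgeR adjusted p = 0.54). Across diets and genotypes its log2 fold change of females against males was 0.14 ± 0.07 (edgeR adjusted p = 0.457), where 0.124% of all genes were called. None of these passed.

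**Figure D4:**
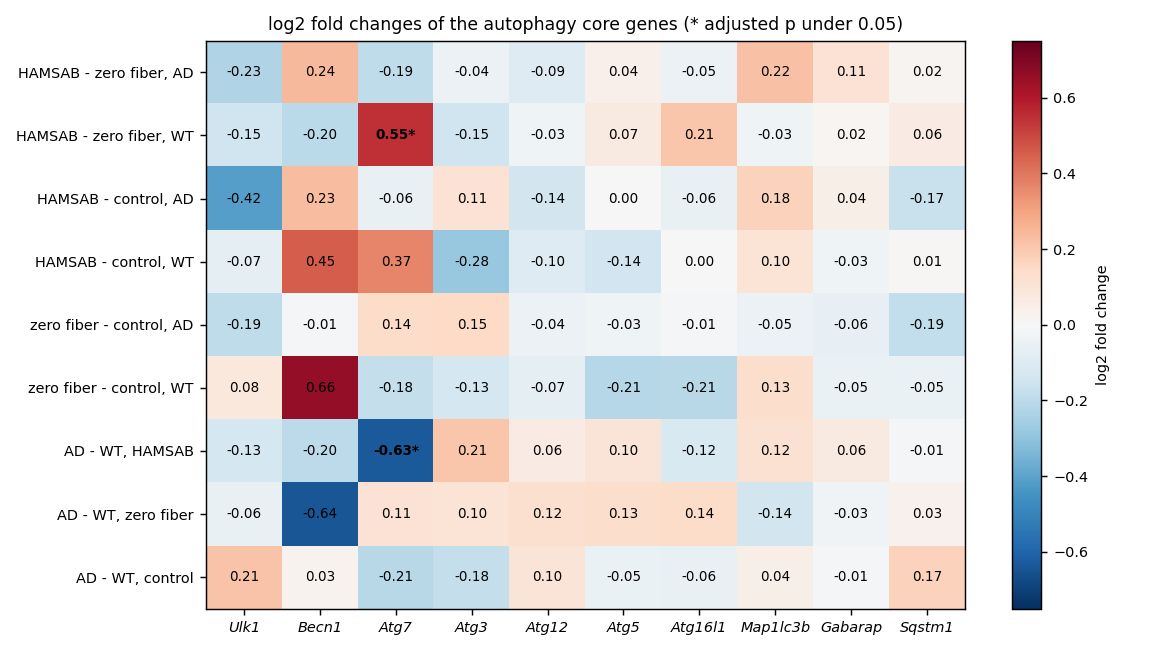
Fitted log2 fold change of each of the 10 genes (columns) in the 9 comparisons of diets within a genotype and genotypes within a diet (rows); red is higher and blue lower in the group named first, and an asterisk marks an edgeR adjusted p under 0.05. The 2 marked cells are both Atg7, at 0.55 and -0.63, and the uncalled Becn1 cells at 0.66 and -0.64 carry standard errors near 0.25.

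Beside Atg7 in those 4 tests, 0 of the 10 genes were called by edgeR in the other 14, and DESeq2 and limma called no member in them either. The background in these was low in most: 0.239% of all genes for HAMSAB against zero fiber and 0.0743% for HAMSAB against control in AD, 0.0578% for zero fiber against control in AD and 0.00825% in WT. AD against WT called 0.00825% of all genes on zero fiber, 0% on control (655 genes had an unadjusted p under 0.05) and 0.0165% over all diets. The genotype differences in the effects of HAMSAB against control and of zero fiber against control called 0% each, with 670 and 748 genes at an unadjusted p under 0.05. Over both genotypes, HAMSAB against control called 4.52% of all genes (2.31% higher and 2.21% lower), HAMSAB against zero fiber 1.02% and zero fiber against control 0.363%. At an unadjusted p under 0.05 there were 0 to 2 of the 10 genes in each of the 14.

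The standard errors show what could be seen. Within a genotype or a diet they ran from 0.09 for Atg5 to 0.26 for Becn1 on the log2 scale, so the fold changes of Becn1, and next those of Ulk1, were the least precise. AD against WT over all diets gave Atg7 a log2 fold change of -0.24 ± 0.07 (edgeR adjusted p = 0.497), and the median of the 10 genes was 0.01.

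Among 62 other autophagy genes, all of which passed the filter, 0 to 3 were called by edgeR in each of the 18 tests (1 to 14 had an unadjusted p under 0.05). The medians of their log2 fold changes stayed near 0: -0.01 for AD against WT on HAMSAB and -0.0026 for HAMSAB against zero fiber in WT, against medians of 0.0014 and 0.0046 over all genes tested. In AD against WT on HAMSAB 3 of 62 were called, 2 higher and 1 lower, where 0.215% of all genes were called higher and 1.47% lower. Foxo3, a transcription factor that activates autophagy genes, had 73.0, 138.0 and 209.1 CPM as lowest, median and highest value in HAMSAB AD, against 174.2, 260.7 and 340.0 CPM in HAMSAB WT. Its log2 fold change was -0.91 ± 0.20 (edgeR adjusted p = 0.00886), and the ranges overlapped. Foxo3 was also the 1 of 62 called in HAMSAB against zero fiber in WT, higher by 0.83 ± 0.23 (edgeR adjusted p = 0.0444). There 2.19% of all genes were called. It was the 1 of 62 called in the difference of these diet effects between genotypes, -1.23 ± 0.31 (edgeR adjusted p = 0.0322), where 1.08% of all genes were called. In both tests the share of the list is near that of all genes. Foxo3 thus passed in the same 3 tests as Atg7 and with the same signs, and these tests share the HAMSAB WT libraries.

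The other 2 called on HAMSAB were opposite in sign. Pik3c3, the lipid kinase that Beclin 1 scaffolds, averaged 33.8 ± 4.51 CPM in HAMSAB AD and 25.96 ± 2.91 CPM in HAMSAB WT (log2 fold change 0.39 ± 0.10, edgeR adjusted p = 0.0316). Fundc1, a receptor for damaged mitochondria, averaged 66.9 ± 8.31 CPM in HAMSAB AD and 51.0 ± 5.45 CPM in HAMSAB WT (log2 fold change 0.38 ± 0.10, edgeR adjusted p = 0.0466). For both, 8 libraries stood in each group and the ranges overlapped. Over both genotypes, HAMSAB against control called 2 of 62, where 4.52% of all genes were called, so the share of the list is not above that of all genes. The 2 were Zkscan3, a repressor of autophagy genes, higher by 0.27 ± 0.08 (edgeR adjusted p = 0.0398), and Rubcn, which encodes Rubicon, a brake on autophagosome maturation and a factor of LC3-associated phagocytosis, at -0.28 ± 0.09 (edgeR adjusted p = 0.0497). Vps39, a subunit of the tethering complex for lysosome fusion, was called with Foxo3 in the test of any difference among the 6 groups (edgeR adjusted p = 0.0281). Its HAMSAB WT values ran from 37.6 to 156.0 CPM, with a median of 51.1 CPM. Fits without single libraries were made for the 10 genes and not for these.

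Within groups, the 10 genes hardly varied together. Over 45 libraries, Pearson correlations between deviations of log2 CPM from the means of the 12 groups by diet, genotype and sex ran from -0.24 to 0.41 over the 45 pairs of genes, with a median of 0.04, and 26 were positive. The highest were Atg5 with Map1lc3b (0.41), Gabarap with Sqstm1 (0.37) and Gabarap with Map1lc3b (0.36). Atg7 and Atg3 had 0.09, and Atg7 and Atg12 had -0.22. These values share each library's depth and scaling and are descriptions.

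**Figure D5:**
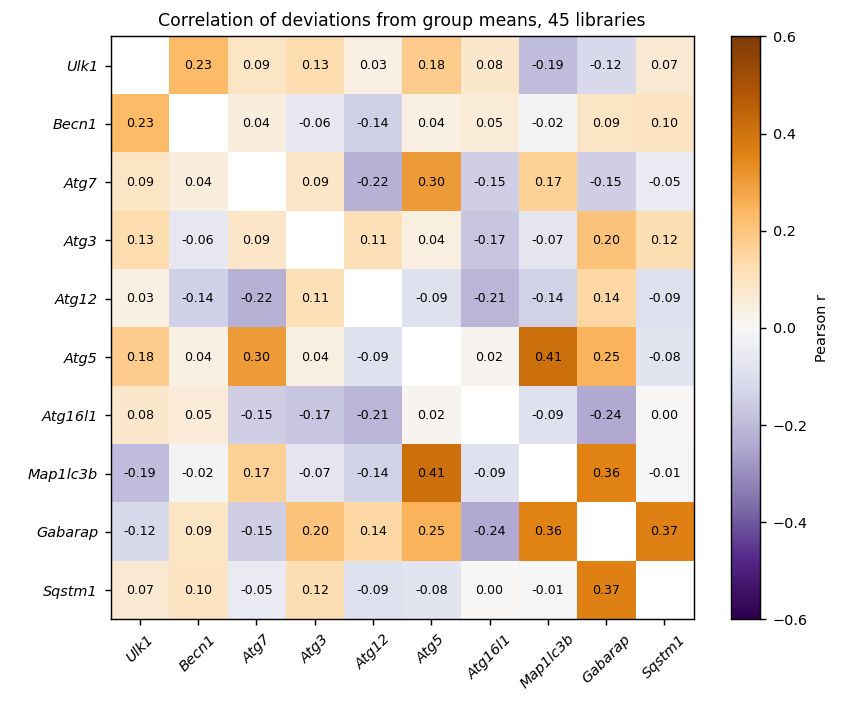
Pearson correlation between each pair of the 10 genes, over deviations of log2 CPM from group means in 45 libraries; orange is positive and purple negative. Atg5, Map1lc3b, Gabarap and Sqstm1 hold the 3 highest values, 0.41, 0.37 and 0.36, and the lowest is -0.24, for Atg16l1 with Gabarap.

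Genes outside the pathway were also searched for the most similar deviations, and the highest values below are maxima over many genes. Among 7470 genes whose log2 CPM averaged 4 or more, those near to Atg7 over the same 45 libraries included Sephs2 (r = 0.70) and Stk35 (0.69). For Map1lc3b the nearest were Capza2 (0.84), Tsg101 (0.82) and Arl8b (0.81). For Gabarap they were Rhog (0.77), Higd2a (0.76) and the complement gene C1qa (0.76). For Ulk1 the nearest was Kpna6 (0.73), and for Becn1 it was Taf3 (0.63). Atg12 was nearest to Opa1 (0.65), Atg16l1 to Myo5a (0.61), Atg3 to Rnf187 (0.63) and Sqstm1 to Gltp (0.64).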

How the data were processed

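The authors deposited raw read counts per gene symbol for 46 libraries, without normalization. Per the submitters' processing notes, STAR 2.5.2b, featureCounts 1.5.2 and the build GRCm38 (mm10) were used; no annotation or strand setting is named there. One edgeR 4.0.16 quasi-likelihood fit (R 4.3.3) over all 46 libraries, with 12 means by diet, genotype and sex, TMM factors of 0.918 to 1.25 and the filterByExpr filter, gave 18 tests of 12121 genes. Sexes were averaged with equal weight. The call threshold was 0.05 on p-values adjusted by Benjamini-Hochberg over all genes; edgeR bounds p from below by a Poisson test, so a p need not follow from the fold change and its SE. CPM were scaled by TMM. RPKM used merged exons of GENCODE M21, matched by symbol. Tests were checked on simulated data. The members and lists were chosen with earlier results of these data known. All 10 genes are named, and others only where called, most similar to a member or of the smallest p in their list. Alternatives were DESeq2 size factors, no filter, the DESeq2 1.42.0 test, limma 3.58.1 voom with quality weights, a title-series term (leaving out the library with no series), only the libraries compared, and leaving out libraries; without a Poisson bound and with the trend on transcript length removed were chosen after seeing the data. Replicate numbers in accession order pair nothing. Some of the most similar genes are not reported here.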

Additional observations from a re-analysis of the deposited data

Results flagged for a closer look

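The response of Atg7 to diet differed between genotypes by a test of the difference itself: the effect of HAMSAB against zero fiber, AD minus WT, was -0.74 on the log2 scale. A single library stood apart from the rest of its group of 6 to 8 in 11 of 60 combinations of gene and group, where about 5% would stand apart so far by chance. In 3 of these the library was zero_fiber_AD_M replicate 2, the one of 52114 counts: Ulk1 was at 0 CPM (0 reads; nearest library 18.3 CPM), Atg12 at 123.6 CPM (8 reads; nearest 55.1 CPM) and Sqstm1 at 15.5 CPM (1 read; nearest 101.5 CPM). The high values were Ulk1 at 34.4 CPM in control_AD_F replicate 2 (nearest 26.1 CPM), Atg5 at 115.5 CPM in HAMSAB_AD_F replicate 4 (nearest 85.8 CPM) and Atg7 at 65.6 CPM in control_AD_M replicate 3 (nearest 44.6 CPM). Atg12 was at 67.3 CPM in control_AD_F replicate 4 (nearest 53.2 CPM) and Atg16l1 at 34.5 CPM in zero_fiber_WT_M replicate 2 (nearest 28.1 CPM). The low values were Atg3 at 44.9 CPM in control_AD_M replicate 2 (nearest 57.4 CPM), Map1lc3b at 112.6 CPM in control_WT_M replicate 3 (nearest 145.9 CPM) and Gabarap at 173.6 CPM in HAMSAB_AD_M replicate 2 (nearest 218.8 CPM). No HAMSAB WT library stood apart in this way for any of the 10 genes.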

How the results depend on the processing

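Outside the fits that leave out 1 library, all 241 log2 fold changes and 159 counts of members called kept their direction and their side of the threshold. The Atg7 log2 fold change ran from 0.54 to 0.55 for HAMSAB against zero fiber in WT, from -0.64 to -0.61 for AD against WT on HAMSAB, and from -0.76 to -0.71 for the difference of diet effects between genotypes. Without 1 library at a time, 636 of 646 fold changes and 450 of 460 counts did so. The 10 others of each kind concern Atg7. For HAMSAB against zero fiber in WT its log2 fold change ran from 0.48 to 0.59 over 14 such fits and was called in 10, so the count of members called ran from 0 to 1. For the difference of diet effects it ran from -0.80 to -0.66 over 30 fits and was called in 24, with a count of 0 to 1. For AD against WT on HAMSAB it ran from -0.68 to -0.56 and was called in 16 of 16. Leaving out a zero fiber WT male leaves 1 library of that sex, assumed to vary like the other groups. The test of any difference among the 6 groups called Atg7 in all 46 such fits. No paired analysis was possible because the replicate numbers come from accession order and pair no libraries. Depth limits Becn1, with a median of 19 reads, and Ulk1, with 50, more than the other genes, and the library of 52114 counts held 8 reads or fewer of each member.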

Other observations

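Of 9 NRF2 pathway genes and targets, a group tied to p62 because p62 binds the NRF2 inhibitor KEAP1, 7 passed the filter and 1 was called for HAMSAB against control over both genotypes, where 4.52% of all genes were called. Gclc, the catalytic subunit of the rate-limiting enzyme of glutathione synthesis, was lower on HAMSAB than on control over both genotypes by a log2 fold change of -0.52 ± 0.11 (SE; edgeR adjusted p = 0.00533). It averaged 51.6 ± 12.02 CPM in HAMSAB AD against 68.7 ± 15.97 CPM in control AD, (SD, n = 8 each), and the medians in WT were 51.6 CPM on HAMSAB against 75.7 CPM on control. Neither genotype passed alone, with log2 fold changes of -0.43 ± 0.15 in AD (edgeR adjusted p = 0.16) and -0.62 ± 0.15 in WT (edgeR adjusted p = 0.0553). In WT the ranges did not overlap, at 36.9 to 65.1 CPM on HAMSAB and 70.0 to 89.7 CPM on control, which 0.033% of all genes showed in this direction. These WT groups held the title series in unlike numbers, as given for Atg3. Sqstm1 in the same comparison had a log2 fold change of -0.08 ± 0.08 and did not pass. The median of the 7 genes was -0.084, against 0.0024 over all genes tested.

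Within 1 Mb of Atg7, 19 other genes were tested, and 1 of them was called in each of a pair of comparisons that called Atg7. Of all genes, 2.19% were called in HAMSAB against zero fiber in WT and 1.68% in AD against WT on HAMSAB. The called neighbour was Irak2, a kinase of interleukin-1 and Toll-like receptor signalling. It was higher on HAMSAB than on zero fiber in WT by 0.89 ± 0.21 on the log2 scale (edgeR adjusted p = 0.0136), and its AD against WT log2 fold change on HAMSAB was -0.69 ± 0.18 (edgeR adjusted p = 0.0315). These comparisons share the HAMSAB WT libraries. Genes called lower in AD on HAMSAB had a median span of 32 kb (177 genes), and those called higher 18 kb (26 genes), against 19.6 kb over 11982 genes placed. For HAMSAB against zero fiber in WT the median was 26.7 kb for genes called higher and 26.6 kb for genes called lower. Atg7 spans 217.5 kb. An alternative, chosen after seeing the data, removed each library's trend on transcript length, taken as merged exons. It kept the Atg7 calls but did not use gene span, and a relation of the calls to span was not tested.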
